A study of Mus musculus with 6 samples.

Results

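The Hippo pathway genes *Yap1*, *Wwtr1*, *Tead1*, *Tead2*, *Tead3*, *Tead4*, *Lats1*, *Lats2*, *Vgll4* and *Amotl2* were examined in PRO-seq libraries of mouse muscle stem cells (MuSCs, also called satellite cells), 10 of the 14546 genes in the deposited table. They were chosen by their symbols, with earlier results of these data known, as the coactivators, DNA-binding partners, kinases and inhibitors at the end of the pathway. All 10 passed the filter on low values that left 12451 genes for the tests. PRO-seq maps transcribing RNA polymerases: nuclei are isolated, polymerases that sit on a gene extend their RNA with biotinylated nucleotides, and this new RNA is pulled down and sequenced with its strand retained. The study asked how loss of *Kmt5b* (also named *Suv4-20h1*), which encodes a histone H4 lysine 20 methyltransferase, alters transcription in proliferating MuSCs. The 3 Ctrl libraries have the genotype Pax7CreERT/Suv4-20h1WT and the 3 *Kmt5b* sKO libraries Pax7CreERT/Suv4-20h1KO, so both groups carry the tamoxifen-dependent Cre that the *Pax7* locus drives in satellite cells. The cells came from limb and trunk muscle of adult mice on a C57BL/6 background treated with tamoxifen, were enriched with magnetic beads and were grown in medium with serum, LIF and bFGF before their nuclei were collected. The replicates are described by the study as biological, and the labels do not name the animals behind each library.

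As background, the Hippo pathway is a kinase cascade that limits growth. The kinases STK3 and STK4 activate LATS1 and LATS2, which phosphorylate the coactivators YAP (*Yap1*) and TAZ (*Wwtr1*) and thereby hold them in the cytoplasm. Without that phosphorylation YAP and TAZ enter the nucleus and bind TEAD proteins, which recognise the DNA motif GGAATG and recruit the coactivators to growth genes. VGLL4 competes with YAP for TEAD, and AMOTL2, a protein of cell junctions, binds YAP outside the nucleus. In satellite cells YAP is known to favour proliferation, and TEAD proteins also bind MCAT elements in muscle genes. PRO-seq reports the transcription of these genes, not the phosphorylation or location of their proteins.

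The motif GGAATG was looked for on both strands (as GGAATG or CATTCC) in the 250 bases before and 50 bases after the listed start of each gene, in the reference sequence of GRCm38, the build of the files. It lay in the windows of 6 of the 10 Hippo genes (60%) and 8 of 22 target genes described below (36.4%). Of 27 upstream and partner genes, also described below, 7 held it (25.9%), and of all 14546 genes 1779 did (12.2%). *Amotl2* and *Lats2*, which both hold the motif, are Hippo genes and target genes and are counted in each set. *Ptpn14* is in the upstream and the target list. The share among the Hippo genes is a description of letters in these windows, without a test. *Tead1* and *Tead3* held 3 matches each, *Amotl2* held 2, and *Yap1*, *Wwtr1* and *Lats2* held 1 each. None lay in the windows of *Tead2*, *Tead4*, *Lats1* or *Vgll4*. The 250 bases before the start are shown 5′ to 3′ for the coactivator genes, for *Amotl2* as the member with the most nascent RNA, and for *Tead4* as the member with the lowest p-value in the gene body. Each motif is in capitals. The *Yap1* sequence is the minus strand of chr9:8004597-8004846, *Wwtr1* the minus strand of chr3:57575911-57576160, *Amotl2* the plus strand of chr9:102717418-102717667 and *Tead4* the minus strand of chr6:128300814-128301063.
Yap1: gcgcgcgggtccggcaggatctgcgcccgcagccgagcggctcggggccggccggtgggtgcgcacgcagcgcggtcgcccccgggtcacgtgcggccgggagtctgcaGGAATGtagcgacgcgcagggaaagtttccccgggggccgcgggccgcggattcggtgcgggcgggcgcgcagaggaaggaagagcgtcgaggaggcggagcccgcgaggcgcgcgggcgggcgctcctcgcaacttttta
Wwtr1: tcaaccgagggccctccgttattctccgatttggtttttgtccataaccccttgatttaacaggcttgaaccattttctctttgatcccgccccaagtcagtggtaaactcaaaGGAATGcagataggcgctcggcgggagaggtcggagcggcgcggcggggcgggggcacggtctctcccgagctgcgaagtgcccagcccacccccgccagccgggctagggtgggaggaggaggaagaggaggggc
Amotl2: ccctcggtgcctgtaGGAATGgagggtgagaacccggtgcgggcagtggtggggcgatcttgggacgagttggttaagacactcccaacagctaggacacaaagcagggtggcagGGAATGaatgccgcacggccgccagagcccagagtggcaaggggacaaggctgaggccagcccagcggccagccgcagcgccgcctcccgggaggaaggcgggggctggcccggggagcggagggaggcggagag
Tead4: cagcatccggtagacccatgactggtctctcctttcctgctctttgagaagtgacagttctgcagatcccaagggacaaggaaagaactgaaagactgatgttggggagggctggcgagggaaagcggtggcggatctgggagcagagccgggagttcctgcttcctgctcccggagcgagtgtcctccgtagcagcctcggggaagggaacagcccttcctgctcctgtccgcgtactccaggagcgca
Counted from the start site, the first base of the motif stood at -141 in *Yap1*, at -136 in *Wwtr1* and at -235 and -135 in *Amotl2*. The letters are not in the *Tead4* window, which says nothing about TEAD binding there.

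A TSS value and a gene body value were deposited for every gene. The TSS region is the first 400 nt of the listed transcript, given in RPM (reads scaled so that every library has the same total), and the gene body is the rest of the transcript, given in TPM (reads divided by length and scaled to a fixed total). Both allow levels of different genes to be compared, since all TSS regions have 1 length and TPM divides by length. With every library scaled to a fixed total, a change shared by all genes would not show in these values. The reads recovered from the values numbered 926904 (*Kmt5b* sKO replicate 2) to 3246052 (Ctrl replicate 3) per library in TSS regions and 7425426 to 16249137 in gene bodies. *Kmt5b* itself did not check the genotype labels: its gene body held 30.6, 35.4 and 38.5 TPM in the Ctrl libraries against 37.8, 35.0 and 42.6 TPM in the *Kmt5b* sKO libraries, and the part of the gene that was deleted was not known here. The 9 markers of MuSCs and myoblasts summed to between 1580 and 2311 TPM in Ctrl and between 2080 and 2790 TPM in *Kmt5b* sKO libraries. Of those, *Myod1* was highest, between 855 and 1328 TPM, and *Pax7* lay between 25.5 and 53.7 TPM. The 6 markers of mature muscle fibres summed to between 404 and 916 TPM in Ctrl and between 1086 and 1513 TPM in *Kmt5b* sKO libraries, without overlap, and none of the 3 tested was called. The 3 Schwann cell markers summed to between 8.75 and 9.90 TPM in Ctrl and between 14.8 and 23.0 TPM in *Kmt5b* sKO libraries, with *Sox10* called. Fibroblast markers (4 of 6 listed, without *Dcn* and *Lum*) summed to at most 17.5 TPM, endothelial markers (3 of 4, without *Kdr*) to between 2.50 and 4.23 TPM in Ctrl and, without overlap, between 4.38 and 5.05 TPM in *Kmt5b* sKO libraries, and smooth muscle markers (4 of 4) to at most 65.6 TPM. Of the 4 immune markers the table lists *Cd68* alone, at 213.7 to 401.7 TPM in Ctrl and 319.2 to 325.6 TPM in *Kmt5b* sKO libraries, above the sum of every other list outside skeletal muscle. The immune list thus rests on 1 gene, and whether its level reflects immune cells was not tested. Each listed marker was above 0 in at least 1 library.

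Among the 10 Hippo genes nascent RNA was unevenly spread. *Amotl2* stood far above the rest, with a mean over the 6 libraries of 673 RPM in the TSS region (position 59 from the top of the 12451 tested genes) and 231 TPM in the gene body (position 170). The other 9 genes had mean TSS levels between 15.4 RPM (*Yap1*) and 61.7 RPM (*Wwtr1*) and mean gene body levels between 25.4 TPM (*Yap1*) and 71.4 TPM (*Tead4*). At the TSS the order after *Amotl2* was *Wwtr1*, *Lats2*, *Vgll4*, *Tead4*, *Lats1*, *Tead2*, *Tead1*, *Tead3* and *Yap1*. The gene body order was *Tead4*, *Vgll4*, *Tead1*, *Lats1*, *Lats2*, *Tead3*, *Tead2*, *Wwtr1* and *Yap1*. Apart from *Amotl2* over the second gene, the ranges of neighbours in these orders overlapped across the 6 libraries. All 10 genes lay above the middle of the tested genes in the gene body (69.0% of genes had a lower level than *Yap1*), whereas *Yap1*, *Tead1* and *Tead3* lay below the middle at the TSS (37.5% of genes were lower than *Yap1*).

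**Figure D1:**
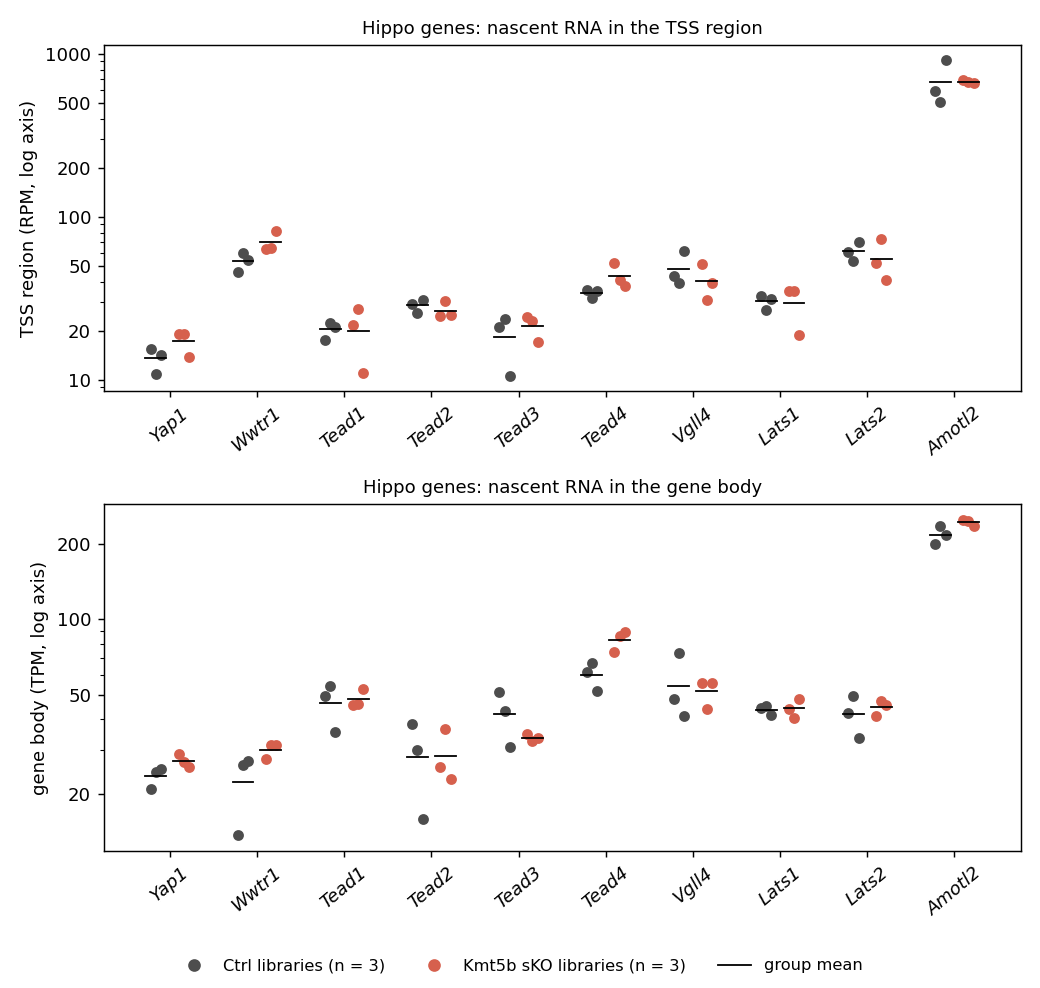
Nascent RNA of the 10 Hippo genes in each library, as RPM in the TSS region (upper panel) and TPM in the gene body (lower panel), both on log axes, with 3 Ctrl libraries in grey, 3 *Kmt5b* sKO libraries in red and a black line at each group mean. *Amotl2* sits above every other gene in both panels, and the groups of *Tead4*, *Wwtr1* and *Yap1* do not overlap in the gene body.

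Neither coactivator gene differed between genotypes past the threshold, although the gene bodies of both were higher in every *Kmt5b* sKO library than in any Ctrl library. *Yap1* is transcribed from the minus strand of chr9:7931999-8004596, with 9 exons in the listed transcript, and its TSS region is exonic throughout. Its gene body held 21.01, 24.5 and 25.3 TPM in Ctrl replicates 1 to 3 against 28.9, 26.8 and 25.7 TPM in *Kmt5b* sKO replicates 1 to 3, respectively. The groups are separated by the small gap between Ctrl replicate 3 and *Kmt5b* sKO replicate 3. The log2 fold change of *Kmt5b* sKO over Ctrl was 0.20 (95% interval -0.10 to 0.50, limma, adjusted p = 0.534). Its TSS region, with only 19 to 75 reads per library, held 15.5, 10.9 and 14.2 RPM in Ctrl against 19.0, 19.2 and 13.8 RPM in *Kmt5b* sKO libraries. The groups overlapped there, with *Kmt5b* sKO replicate 3 among the Ctrl values, and the log2 fold change was 0.34 (-0.32 to 1.003, adjusted p = 0.790, limma).

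*Wwtr1*, which encodes TAZ, lies on the minus strand of chr3:57455782-57575910 and has 7 exons. Its gene body held 13.7, 26.1 and 27.1 TPM in the Ctrl libraries against 27.6, 31.5 and 31.4 TPM in the *Kmt5b* sKO libraries. Ctrl replicate 1 lay far below the other 5 libraries, and the lowest *Kmt5b* sKO library was close to the highest Ctrl library. The log2 fold change was 0.49 (-0.12 to 1.09, limma, adjusted p = 0.431), and without Ctrl replicate 1 it was 0.18 (adjusted p = 0.721). In its TSS region 46.0, 60.3 and 54.6 RPM were measured in Ctrl and 63.3, 64.7 and 81.4 RPM in *Kmt5b* sKO libraries. All 3 *Kmt5b* sKO values were above all 3 Ctrl values, and the log2 fold change was 0.38 (-0.09 to 0.84, adjusted p = 0.602, limma). *Yap1* and *Wwtr1* together came to between 34.7 and 52.4 TPM in Ctrl gene bodies and between 56.5 and 58.3 TPM in *Kmt5b* sKO gene bodies. *Wwtr1* over *Yap1* was 0.65 in Ctrl replicate 1 and between 0.96 and 1.22 in the other 5 libraries, so the 2 genes were transcribed at similar gene body levels in those libraries.

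Of the 4 TEAD genes, *Tead4* had the most nascent RNA in the gene body and the lowest p-value of all 10 Hippo genes, but it was not called by limma. TEAD4 is a member of the family that is known to act in myoblasts and their differentiation. The gene lies on the minus strand of chr6:128227143-128300813, with 12 exons and a gene body of 73270 nt of which 3.65% is exonic. Its gene body held 61.4, 66.6 and 51.6 TPM in the Ctrl libraries against 74.3, 85.4 and 89.3 TPM in the *Kmt5b* sKO libraries. Every *Kmt5b* sKO library was above every Ctrl library. The log2 fold change was 0.47 ± 0.15 (SE), a 1.39-fold difference (95% interval 1.10 to 1.76), with an unadjusted p of 0.0131 and an adjusted p of 0.176 in limma. DESeq2 on the recovered reads called it (log2 fold change 0.45, adjusted p = 0.0356) and edgeR did not (adjusted p = 0.111). Over all alternatives the adjusted p ranged from 0.0356 to 0.448. The summed markers of fibres, Schwann cells and endothelial cells given above were also higher in all *Kmt5b* sKO libraries than in any Ctrl library, and their part in this difference was not tested. In these bulk libraries more cells of one type and more nascent RNA per cell cannot be told apart. The start of the gene held 35.3, 31.6 and 34.9 RPM in Ctrl against 52.1, 40.9 and 37.7 RPM in *Kmt5b* sKO libraries. The groups did not overlap there either, and the log2 fold change was 0.35 (-0.16 to 0.85, adjusted p = 0.676, limma).

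*Tead1*, the longest of the family with a gene body of 219741 nt on the plus strand of chr7:112679318-112899459, showed no such separation. Its gene body held 49.4, 54.2 and 35.3 TPM in Ctrl against 45.4, 46.0 and 52.6 TPM in *Kmt5b* sKO libraries, with a log2 fold change of 0.07 (-0.35 to 0.49, limma, adjusted p = 0.903). A second gene model on the same strand, *Gm44462*, overlaps it, so some of its reads could belong to either. At its TSS 17.7, 22.4 and 21.2 RPM in Ctrl against 21.6, 27.1 and 11.04 RPM in *Kmt5b* sKO libraries were measured. The lowest and the highest TSS values were both from *Kmt5b* sKO libraries.

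*Tead2*, on the plus strand of chr7:45215753-45233644, varied most in the gene body among the TEAD genes, with 38.3, 30.1 and 15.8 TPM in Ctrl against 25.8, 36.6 and 22.9 TPM in *Kmt5b* sKO libraries. Ctrl replicate 3 was the lowest and Ctrl replicate 1 the highest, so the whole range was set by Ctrl libraries. Its TSS region was steadier, between 24.6 and 30.9 RPM in all 6 libraries. *Tead3*, on the minus strand of chr17:28331675-28350600, held 51.1, 43.0 and 30.9 TPM in Ctrl against 34.7, 32.5 and 33.7 TPM in *Kmt5b* sKO gene bodies. Ctrl replicate 3 was again the lowest library. The log2 fold change of the *Tead3* gene body was -0.28 (-0.72 to 0.17, limma, adjusted p = 0.559), the lowest of the 10 Hippo genes, whereas its TSS region, between 10.6 and 23.6 RPM in Ctrl and between 17.0 and 24.3 RPM in *Kmt5b* sKO libraries, had a log2 fold change of 0.28 (adjusted p = 0.846). The gene body value of *Tead3* was -0.12 without Ctrl replicate 1 and -0.47 without Ctrl replicate 3 (adjusted p = 0.862 and 0.108).

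The share of each gene in the summed gene body TPM of the 4 TEAD genes was computed after the values had been seen. The sum was 200.1, 193.8 and 133.6 TPM in Ctrl replicates 1 to 3 against 180.1, 200.5 and 198.4 TPM in *Kmt5b* sKO replicates 1 to 3, respectively. *Tead4* made up 30.7%, 34.3% and 38.6% of it in Ctrl against 41.2%, 42.6% and 44.99% in *Kmt5b* sKO libraries. *Tead3* made up 25.5%, 22.2% and 23.1% in Ctrl against 19.3%, 16.2% and 17.0% in *Kmt5b* sKO libraries. The *Tead4* share was thus higher in *Kmt5b* sKO libraries (42.9% ± 1.90 against 34.5% ± 3.97, SD, n = 3) and the *Tead3* share lower (17.5% ± 1.60 against 23.6% ± 1.73), without overlap between the groups. These shares are a description, without a test. As parts of the same sum they are tied, so a higher share of *Tead4* by itself lowers the others. The *Tead3* gene body TPM itself overlapped between the groups. The shares of *Tead1* (23.0% to 27.9%) and *Tead2* (11.5% to 19.1%) overlapped between the genotypes.

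*Vgll4*, the inhibitor that competes for TEAD, lies on the minus strand of chr6:114861424-114921821. Its gene body held 47.8, 73.1 and 41.0 TPM in Ctrl against 55.5, 43.9 and 55.4 TPM in *Kmt5b* sKO libraries. Ctrl replicates 2 and 3 were the highest and the lowest library, and the log2 fold change was -0.03 (-0.56 to 0.50, limma, adjusted p = 0.975). Its start region held 43.1, 39.1 and 61.8 RPM in Ctrl against 51.5, 31.0 and 39.1 RPM in *Kmt5b* sKO libraries, with a log2 fold change of -0.24 (adjusted p = 0.823). The same Ctrl library that was lowest in the *Vgll4* gene body was the highest at its TSS.

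Of the kinase genes, *Lats1* was the steadiest gene of the set in the gene body. *Lats1*, on the plus strand of chr10:7681214-7716460, held 44.2, 45.02 and 41.3 TPM in Ctrl against 43.9, 40.1 and 48.0 TPM in *Kmt5b* sKO gene bodies. The highest library was only 1.20 times the lowest, and the log2 fold change of 0.01 had an interval from -0.27 to 0.30 (limma, adjusted p = 0.976). The TSS region of *Lats1* held 32.7, 27.0 and 31.4 RPM in Ctrl against 35.1, 35.0 and 18.9 RPM in *Kmt5b* sKO libraries. *Kmt5b* sKO replicate 3 was the lowest library for the TSS regions of *Lats1*, *Lats2* and *Tead1* alike. *Lats2*, on the minus strand of chr14:57689662-57746123, held 42.1, 49.6 and 33.4 TPM in Ctrl against 41.2, 46.9 and 45.3 TPM in *Kmt5b* sKO gene bodies, with a log2 fold change of 0.11 (-0.28 to 0.49, limma, adjusted p = 0.822). The TSS region of *Lats2* held 61.0, 53.4 and 70.3 RPM in Ctrl against 52.1, 73.3 and 40.9 RPM in *Kmt5b* sKO libraries (log2 fold change -0.18, adjusted p = 0.867). The table lists the symbol *Lats2* a second time for a transcript that runs on from *Lats2* into *Xpo4* and shares its reads. This second row was left out of the counts of Hippo and target genes, but it remains among the 14546 listed and 12451 tested genes. This row had log2 fold changes of -0.19 (TSS) and 0.04 (gene body).

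*Amotl2*, on the plus strand of chr9:102717668-102733418, encodes a junction protein that binds YAP and is itself a known target gene of YAP and TEAD. Its TSS region held 593, 504 and 912 RPM in Ctrl against 695, 675 and 661 RPM in *Kmt5b* sKO libraries. The Ctrl libraries spanned the whole range, with the *Kmt5b* sKO libraries close together inside it. Its gene body held 199.6, 235.89 and 216.7 TPM in Ctrl against 249.4, 247.4 and 235.88 TPM in *Kmt5b* sKO libraries. The groups touched at Ctrl replicate 2 and *Kmt5b* sKO replicate 3, and the log2 fold change was 0.17 (-0.15 to 0.49, limma, adjusted p = 0.624). In the TSS region the log2 fold change was 0.06 (-0.48 to 0.60, adjusted p = 0.967), and its sign turned with the scaling, as it was -0.08 in edgeR and -0.09 in DESeq2.

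Taken over the set, limma called 0 of the 10 Hippo genes in the TSS region, where it called 207 of 12451 tested genes (1.66%), and 0 of 10 in the gene body, where it called 372 (2.99%). At an unadjusted p under 0.05 the TSS region gave 0 of 10 and the gene body 1 of 10 (*Tead4*), against 11% and 15.9% of all tested genes. On the recovered reads, edgeR called 0 of the 10 in both regions (2.24% and 6.01% of all genes), and DESeq2 called 0 in the TSS region and 1 (*Tead4*) in the gene body (2.37% and 10.4% of all genes). Groups that did not overlap, with all *Kmt5b* sKO libraries higher, were found for *Wwtr1* and *Tead4* at the TSS and for *Yap1*, *Wwtr1* and *Tead4* in the gene body, and for none with all *Kmt5b* sKO libraries lower. Among all tested genes 15.6% did not overlap at the TSS (10.2% higher, 5.33% lower) and 21.4% in the gene body (12% higher, 9.34% lower). The 10 genes had a median log2 fold change of -0.01 at the TSS, with 5 genes above 0 and 5 below, and 0.09 in the gene body, with 8 above 0 and 2 below (*Tead3* and *Vgll4*). Over all tested genes the medians were 0.08 and 0.02, and 58.2% and 53.8% of genes lay above 0. The intervals of single genes remained wide, so that a 1.5-fold higher TSS level, for example, was inside the interval of *Yap1*, *Wwtr1*, *Tead3*, *Tead4* and *Amotl2*.

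**Figure D2:**
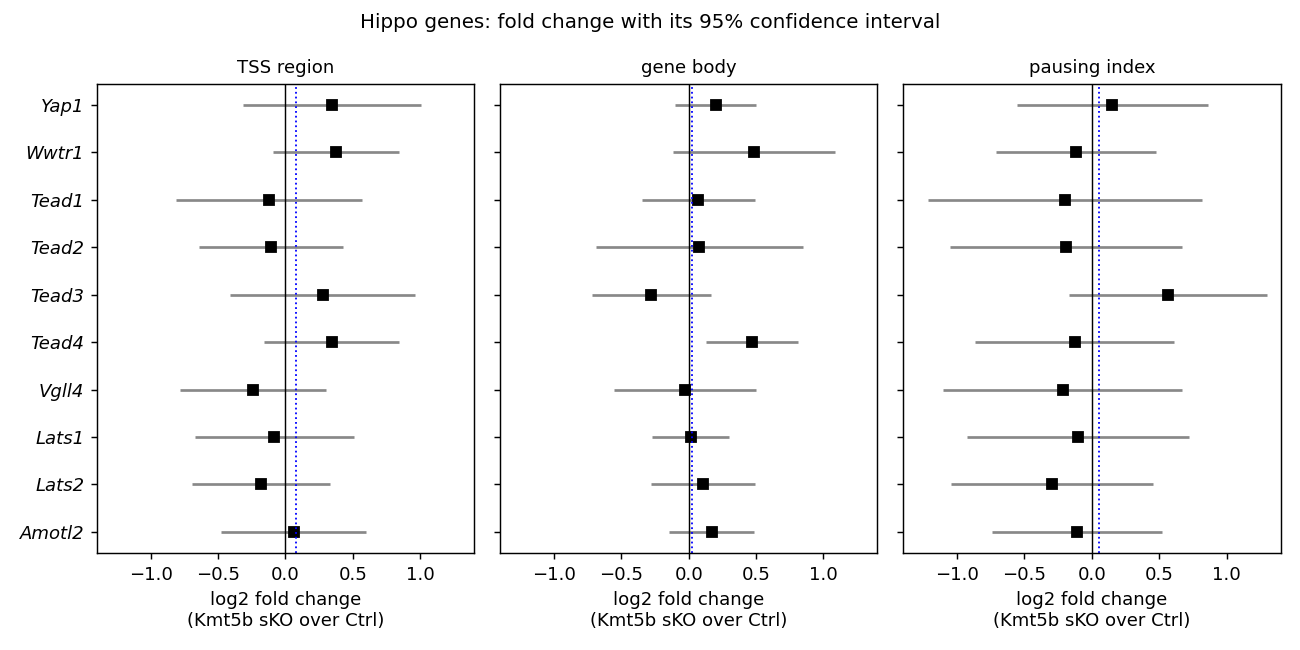
Log2 fold change of *Kmt5b* sKO over Ctrl for the 10 Hippo genes in the TSS region, the gene body and the pausing index, with squares for the estimate, grey bars for its 95% interval from limma (3 against 3 libraries) and a dotted blue line at the median of all tested genes. The interval of the *Tead4* gene body (0.13 to 0.81) is the 1 interval of the 30 that does not include 0.

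The pausing index, the TSS value in RPM over the gene body value in TPM, compares polymerases near the start of a gene with those further along it. The TSS values and the gene body values are each scaled to their own total, so the index is not a ratio of polymerase densities. It places genes and libraries relative to these totals, and a low index does not mean fewer polymerases near the start. The median of the index over tested genes was between 1.47 and 1.61 per library. *Amotl2* (mean 2.94 over the 6 libraries) and *Wwtr1* (2.44) lay above that range, while *Lats2* (1.39), *Tead2* (1.07), *Vgll4* (0.88), *Lats1* (0.69), *Yap1* (0.61), *Tead4* (0.56), *Tead3* (0.54) and *Tead1* (0.44) lay below it. *Yap1* and *Wwtr1*, whose gene body levels were alike, thus differed in the index: *Yap1* lay between 0.45 and 0.74 and *Wwtr1* between 2.01 and 3.36, without overlap across the 6 libraries. Of the 10 genes 0 were called between the genotypes in limma, as were 0 of the 11698 genes with an index (0%), and 0 of the 10 had an unadjusted p under 0.05, against 3.86% of all genes. No gene of the 10 had groups without overlap, against 9.02% of all genes (5.93% higher, 3.09% lower). The median log2 fold change of the index was -0.12, with 2 genes above 0 (*Yap1* and *Tead3*) and 8 below, against a median of 0.05 over all genes, of which 57.3% lay above 0. *Tead3* had the largest value, with an index of 0.41, 0.55 and 0.34 in Ctrl against 0.70, 0.71 and 0.51 in *Kmt5b* sKO libraries. Only *Kmt5b* sKO replicate 3 lay within the Ctrl range, and the log2 fold change was 0.57 (-0.17 to 1.30, limma, adjusted p = 0.9997). High single values were seen for Ctrl replicate 3, which gave the highest index of *Tead2* (1.95), *Vgll4* (1.51), *Lats2* (2.10) and *Amotl2* (4.21), and a low one for *Kmt5b* sKO replicate 3 in *Tead1* (0.21) and *Lats1* (0.39).

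**Figure D3:**
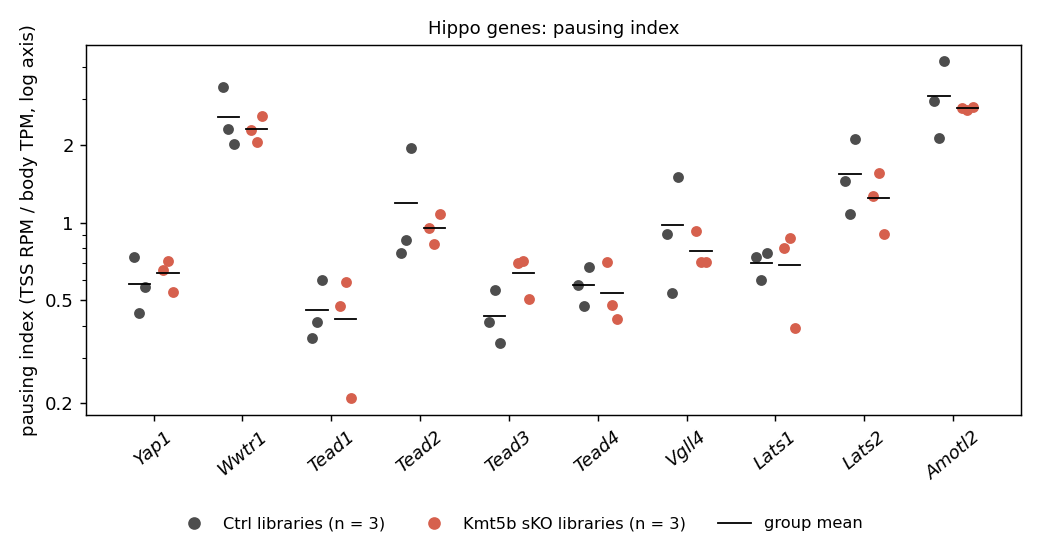
Pausing index (TSS value in RPM over gene body value in TPM, log axis) of the 10 Hippo genes in 3 Ctrl libraries (grey) and 3 *Kmt5b* sKO libraries (red), with a black line at each group mean. *Amotl2* and *Wwtr1* lie highest, *Tead1* lowest, and the groups overlap for every gene.

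The genes that act upstream or beside these proteins were described with a list of 28: the core kinases and adaptors (*Stk3*, *Stk4*, *Sav1*, *Mob1a*, *Mob1b*), other kinases (*Taok1*, *Taok2*, *Taok3*, *Map4k4*, *Stk38*, *Stk38l*), membrane and scaffold proteins (*Nf2*, *Wwc1*, *Wwc2*, *Frmd6*, *Fat1*, *Fat4*, *Dchs1*, *Amot*, *Amotl1*, *Ptpn14*, *Rassf1*), LIM proteins that restrain LATS (*Ajuba*, *Limd1*, *Wtip*) and TEAD cofactors (*Vgll1*, *Vgll2*, *Vgll3*). Of these, 27 are in the table and 25 were tested, as *Amot* is on chromosome X and *Fat4* was listed at 0 in the TSS region of all 6 libraries. None of the 25 was called by limma in either region, in any direction, with a median log2 fold change of 0.08 (TSS) and 0.06 (gene body). The unadjusted p was under 0.05 for 2 genes in the TSS region (*Fat1* and *Ajuba*) and 3 in the gene body (*Wwc1*, *Fat1* and *Ajuba*), all higher in *Kmt5b* sKO libraries, against 11% and 15.9% of all tested genes. The core kinases and adaptors stayed within log2 fold changes of -0.17 (*Stk3*, TSS region) and 0.21 (*Sav1*, gene body).

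*Fat1*, an atypical cadherin at the head of the pathway, held 15.01, 15.5 and 14.8 RPM in the Ctrl TSS regions against 27.5, 27.1 and 33.6 RPM in the *Kmt5b* sKO TSS regions. The Ctrl libraries were close to each other and all *Kmt5b* sKO libraries lay above them, with a log2 fold change of 0.93 (0.36 to 1.51, limma, adjusted p = 0.123). In its gene body the values were 28.2, 42.3 and 37.2 TPM in Ctrl against 55.6, 53.4 and 50.4 TPM in *Kmt5b* sKO libraries (log2 fold change 0.58, adjusted p = 0.154 in limma and 0.0462 in DESeq2). *Ajuba*, which binds LATS kinases, held 88.7, 86.2 and 89.6 TPM in the Ctrl gene bodies against 117.9, 98.2 and 141.7 TPM in the *Kmt5b* sKO gene bodies, again without overlap (log2 fold change 0.42, limma, adjusted p = 0.257). Its TSS log2 fold change was 0.66 (adjusted p = 0.244). *Wwc1*, also known as KIBRA, was low, with 2.79, 3.26 and 2.28 TPM in Ctrl against 4.06, 6.41 and 5.92 TPM in *Kmt5b* sKO gene bodies. It had a log2 fold change of 0.85 (0.33 to 1.38, adjusted p = 0.131 in limma), and both edgeR (0.96, adjusted p = 0.0415) and DESeq2 (0.96, adjusted p = 9.0e-04) called it. *Dchs1*, a cadherin that binds FAT proteins, had a TSS log2 fold change of 0.51 (adjusted p = 0.698) from 6.29, 7.47 and 7.58 RPM in Ctrl against 12.8, 9.24 and 9.20 RPM in *Kmt5b* sKO libraries. Without overlap and higher in *Kmt5b* sKO libraries were 5 of 25 genes in the TSS region (*Fat1*, *Ajuba*, *Dchs1*, *Ptpn14*, *Frmd6*) and 5 of 25 in the gene body (*Wwc1*, *Fat1*, *Ajuba*, *Mob1b*, *Stk38l*), and 0 were lower without overlap, against 10.2% (TSS) and 12% (gene body) of all tested genes that were higher without overlap.

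Known target genes of YAP, TAZ and TEAD from other cells were described with a list of 22. It shares *Amotl2* and *Lats2* with the Hippo genes and *Ptpn14* with the upstream list. Of the 22 target genes, 21 were tested (*Fjx1* was under the minimum). None was called by limma in either region, yet most values lay above 0: 17 of 21 in the TSS region, with a median log2 fold change of 0.36, and 20 of 21 in the gene body, with a median of 0.28. Over all tested genes 58.2% and 53.8% lay above 0, with medians of 0.08 and 0.02, and nothing particular to the list is drawn from these counts and medians, as the list was chosen with results of these data known and its genes were not tested together. The unadjusted p was under 0.05 for 5 genes in the TSS region (*Dock5*, *F3*, *Ctgf*, *Axl* and *Gadd45a*) and 2 in the gene body (*Nuak2* and *Dock5*), all higher, against 11% and 15.9% of all tested genes. Not overlapping and higher were *Gadd45a*, *Axl*, *Ptpn14* and *F3* in the TSS region and *Nuak2*, *Dock5* and *Foxf2* in the gene body, 4 and 3 of 21 genes beside 10.2% and 12% of all. Without Ctrl replicate 3, limma called 2 of the 21 target genes in each region. They were *Dock5* and *Gadd45a* at the TSS (adjusted p = 0.0620 and 0.0797) and *Nuak2* and *Gadd45a* in the gene body (adjusted p = 0.0855 and 0.0644). In the same fits limma called 270 of all 12451 tested genes at the TSS and 836 in the gene body. Leaving out any other library gave 0 target genes.

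The gene body of *Ctgf*, the secreted matricellular protein widely used as a reporter of YAP activity, held 50.4, 242.8 and 157.9 TPM in Ctrl against 287.1, 426.9 and 195.2 TPM in *Kmt5b* sKO libraries. The Ctrl libraries spread widely, *Kmt5b* sKO replicate 3 lay below Ctrl replicate 2, and the log2 fold change of 1.21 had an interval from -0.11 to 2.52 (limma, adjusted p = 0.362). Without Ctrl replicate 1 it was 0.56 (adjusted p = 0.627), and without Ctrl replicate 2 it was 1.68 (adjusted p = 0.196). *Cyr61*, its relative, had a log2 fold change of 0.12 in the gene body, from 987, 839 and 759 TPM in Ctrl against 841, 1294 and 741 TPM in *Kmt5b* sKO libraries, and 0.03 in the TSS region. The gene body of *Nuak2*, a kinase, held 9.70, 12.6 and 12.8 TPM in Ctrl against 23.4, 22.9 and 16.3 TPM in *Kmt5b* sKO libraries. Its groups did not overlap, with a log2 fold change of 0.80 (0.36 to 1.25), an adjusted p of 0.107 in limma, 0.0740 in edgeR and 0.0102 in DESeq2. *Dock5*, an exchange factor for RAC, held 2.07, 4.40 and 5.26 TPM in the Ctrl gene bodies against 6.83, 6.80 and 5.75 TPM in the *Kmt5b* sKO gene bodies (log2 fold change 0.73, adjusted p = 0.302). Its TSS region held 1.94, 1.15 and 6.63 RPM in Ctrl against 6.56, 9.24 and 9.20 RPM in *Kmt5b* sKO libraries, with as few as 2 reads in 1 library (log2 fold change 1.51, limma, adjusted p = 0.211). The TSS values of *F3* (tissue factor, 0.19 to 1.94 RPM in Ctrl and 2.29 to 4.60 RPM in *Kmt5b* sKO libraries) and *Nt5e* (CD73, 0 to 0.76 and 0.46 to 1.32 RPM) were lower still, and their log2 fold changes of 1.36 and 1.11 (adjusted p = 0.417 and 0.672) rest on few reads. *Gadd45a*, which is also a p53 target, held 138.5, 141.3 and 162.5 RPM in the Ctrl TSS regions against 288.1, 217.3 and 232.7 RPM in the *Kmt5b* sKO TSS regions (log2 fold change 0.73, limma, adjusted p = 0.112), and was named after its values were seen.

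**Figure D4:**
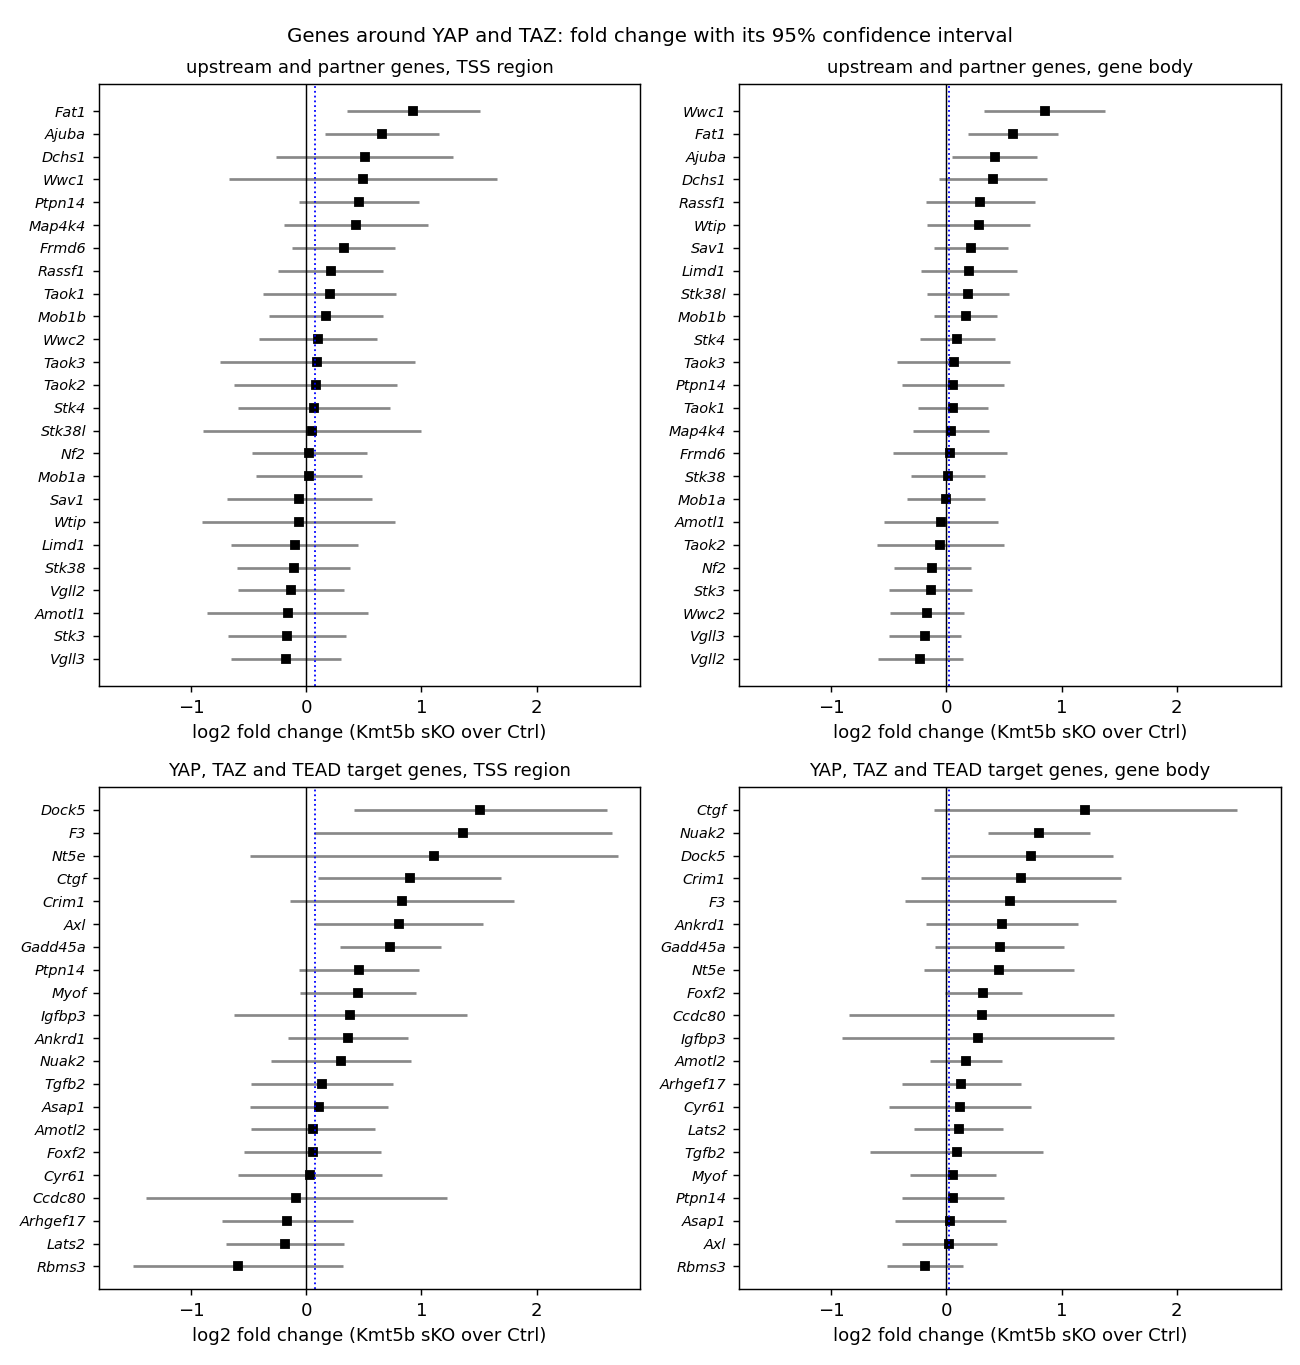
Log2 fold change of *Kmt5b* sKO over Ctrl for the 25 tested upstream and partner genes (upper panels) and the 21 tested target genes (lower panels) in the TSS region (left) and the gene body (right), with squares for the estimate, grey bars for its 95% interval from limma (3 against 3 libraries) and a dotted blue line at the median of all tested genes. In the lower right panel 20 of 21 squares lie above 0, and no gene in any panel was called.

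The genes whose gene body values ran most like those of *Yap1* across the 6 libraries were *Arih1* (Pearson r of log2 values 0.992), *Lipo3* (0.989) and *Commd2* (0.988), and 212 genes reached 0.9 or more. For *Wwtr1* they were *Trim44* (0.985), *Pnpla8* (0.983) and *Arntl* (0.979), among 129 genes at 0.9 or more. All 6 of these genes had their lowest value in Ctrl replicate 1, as *Yap1* and *Wwtr1* did. With 6 libraries these correlations are a description, since all genes share the depth and composition of each library, and *Lipo3* was low (0.34 to 0.66 TPM).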

How the data were processed

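PRO-seq values of 3 Ctrl and 3 *Kmt5b* sKO libraries were analysed, grouped by the genotype labels. The authors trimmed reads with Trimmomatic 0.39, aligned them to GRCm38 (mm10) with STAR 2.6.1d, placed a read that matched several positions at 1 of them at random, removed duplicates with Picard 2.18.16 and counted sense reads, 1 isoform listed per gene, versions as in the submitters' processing notes. The deposited TSS values are RPM and the deposited gene body values are TPM. A random position for a multiply matching read blurs near-identical genes, and duplicate removal can cap strong TSS regions.

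Genes off chromosomes X and Y whose mean reached 0.5 at the TSS and in the gene body were retained (12451 of 14546; 478 on X or Y, 1617 others under the minimum). log2(value + 0.5) was tested with limma 3.58.1 in R 4.3.3 (trend), genotype being its single term, at a threshold of 0.1 after Benjamini-Hochberg adjustment. The pseudocount shrinks the fold changes of low genes. The pausing index was tested as a log2 ratio without a pseudocount (11698 genes). Reads recovered from the steps between values (100% of TSS values and 100% of gene body values of short genes were whole, within rounding) were tested with edgeR 4.0.16 (279 and 748 genes called in TSS and gene body) and DESeq2 1.42.0 (295 and 1295). The fit was tested on simulated data.

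All members were named, and of each list every called gene and the 3 largest absolute fold changes per region, and the 3 genes most correlated with *Yap1* and *Wwtr1*. Other genes were named after their values were seen. Members and lists were chosen with earlier results of these data known. Promoter sequence was read from the GRCm38 reference, and the 12 RefSeq promoter windows given for members were identical to it. Python 3.11.15, pandas 2.3.3, numpy 2.4.6 and matplotlib 3.10.9 were used for the rest.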

Additional observations from a re-analysis of the deposited data

How the results depend on the processing

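The 10 Hippo genes gave 450 values under alternatives chosen with the design, of which 421 retained direction and side of the threshold, 1 passed it (*Tead4* gene body in DESeq2, which called 1 of the 10 genes) and 28 changed sign, 23 of them without 1 library. None of these 28 was a called value, and the cause was not tested. Sign changes outside those were *Lats1* in the gene body (-0.0037 in edgeR, -0.0094 in DESeq2) and *Amotl2* in the TSS region (-0.0020 with libraries centred on the median, -0.076 in edgeR, -0.087 in DESeq2). Of 191 values of named list genes, 184 were unaffected in this sense and 7 passed the threshold. Among all genes, the TSS region gave 207 calls, but 0 without the low filter, 0 without the trend, 0 with the replicate number as a block and 64 at an adjusted p under 0.05. The gene body gave 372 calls, 0 with the replicate block, 748 in edgeR, 1295 in DESeq2 and 1 at an adjusted p under 0.05. The pausing index gave 1 call with a pseudocount of 0.5. Of the 25 upstream and partner genes, edgeR called 1 and DESeq2 called 2, and of the 21 target genes each called 1, all in the gene body. Of all genes, edgeR called 6.01% and DESeq2 10.4% in the gene body.

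Same-numbered libraries did not deviate together (correlations of -0.03, -0.13 and -0.16 in the TSS region and -0.15, -0.17 and -0.33 in the gene body). The deviations were taken from the mean of each genotype, which ties these correlations to each other. They cannot settle whether the libraries were prepared in pairs, which the labels do not say. Leaving out 1 library in turn gave 1 to 408 calls in the TSS region, 0 to 836 in the gene body and 0 to 0 in the pausing index, and 0 to 2 target genes in each region. The log2 fold changes that changed sign ranged, in the TSS region, from -0.38 to 0.25 (*Tead1*), -0.069 to 0.49 (*Tead3*), -0.23 to 0.21 (*Lats1*), -0.40 to 0.015 (*Lats2*) and -0.12 to 0.31 (*Amotl2*). In the gene body they ranged from -0.11 to 0.20 (*Tead1*), -0.28 to 0.34 (*Tead2*), -0.049 to 0.079 (*Lats1*), -0.041 to 0.24 (*Lats2*) and -0.20 to 0.21 (*Vgll4*). For the pausing index the ranges were -0.025 to 0.34 (*Yap1*), -0.27 to 0.10 (*Wwtr1*), -0.50 to 0.25 (*Tead1*), -0.44 to 0.23 (*Tead2*), -0.34 to 0.026 (*Tead4*), -0.32 to 0.26 (*Lats1*), -0.59 to 0.16 (*Vgll4*) and -0.35 to 0.14 (*Amotl2*). Among the 10 Hippo genes the fewest TSS reads in a library were 19 (*Yap1*), and some list genes had fewer.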
